A study of Mus musculus with 3 samples.

Results

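The nuclear-encoded genes of oxidative phosphorylation were followed through the cell types of the inguinal stromal vascular fraction (SVF) in wild-type mice and in 2 kinds of *Mgp* knockout. The members were taken by name: every gene whose symbol marks it as a subunit of NADH dehydrogenase (complex I, *Ndufa*, *Ndufb*, *Ndufc*, *Ndufs* and *Ndufv*), succinate dehydrogenase (complex II, *Sdh*), cytochrome bc1 (complex III, *Uqcr*), cytochrome c oxidase (complex IV, *Cox* 4 to 8 with a letter) or ATP synthase (complex V, *Atp5*). This gave 83 of 32285 genes, with 36 in complex I, 4 in complex II, 8 in complex III, 18 in complex IV and 17 in complex V. *Ndufa4* and *Ndufa4l2*, which carry a complex I name, were counted with complex IV, where *Ndufa4* protein is known to sit. The name pattern leaves out a few subunits, among them *Cox4i1* and *Cyc1*, and these were kept as a list of their own. That list also holds cytochrome c, *Cycs*, and *Dmac1*, which are not subunits.

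The study asked how loss of matrix Gla protein (MGP), a secreted inhibitor of bone morphogenetic proteins, affects the progenitor cells of white fat. All mice were 4 weeks old, and each of the 3 libraries pooled female and male mice of 1 genotype: wild-type, *Mgp*-KO, in which *Mgp* is lost in every cell, and *Pd*-KO, in which a *Pdgfra*-Cre transgene deletes a floxed *Mgp* in cells that express *Pdgfra* or descend from such cells. Inguinal fat was digested with collagenase, live CD45-negative cells were sorted, and 10x Genomics 3′ v3 libraries were made. Mature adipocytes float and are largely lost in this preparation. No library of floxed mice without Cre is analysed here, so wild-type served as the control of both knockouts, and *Pd*-KO differs from it in the floxed alleles and the transgene too. With 1 library per genotype, no test between genotypes was possible, and the intervals of ratios below, all of 95%, cover error of counting alone.

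Oxidative phosphorylation passes electrons from NADH and succinate through complexes I to IV to oxygen and uses the proton gradient so built to make ATP at complex V. Most subunits are encoded in the nucleus and imported, while some subunits of each complex except complex II come from mitochondrial DNA. Preadipocytes make many mitochondria as they turn into adipocytes, and some complex IV subunits exist as isoforms with their own tissues, such as *Cox7a1* and *Cox8b* of heart, skeletal muscle and brown fat.

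Cells were barcodes with at least 2000 unique molecular identifiers (UMIs, 1 per captured RNA molecule) of which at most 10% were mitochondrial. Wild-type gave 10511 cells, *Mgp*-KO 12575 and *Pd*-KO 8819, with medians of 12802, 6445 and 8269 UMIs. Types were gated on the number of marker genes detected, without any member, so deeper cells passed more easily, and cells that passed gates of more than 1 lineage were left out. Early adipocytes, with at least 5 of 10 adipocyte genes such as *Adipoq*, *Plin1* and *Cidec*, were 197, 38 and 28 cells. Preadipocytes were 1047, 909 and 467 cells, and interstitial progenitors, the cells marked by *Dpp4* and *Pi16*, 1727, 3708 and 3471 cells. The mix of sexes, read from *Xist* and Y-linked genes, differed between libraries. Interstitial progenitors held 428 female and 812 male cells in wild-type, 1933 and 833 in *Mgp*-KO and 949 and 1707 in *Pd*-KO. Preadipocytes held 368 and 409, 592 and 195, and 154 and 197. Ratios within 1 sex are given for these 2 types only. As a check of the labels, *Mgp* ranged from 36.4 to 3569 CPM (UMIs scaled to the same total in each type and library) over the 10 types in wild-type and from 0 to 5.38 CPM in *Mgp*-KO cells. In *Pd*-KO cells it was 1.22 CPM in interstitial progenitors and 0.267 CPM in preadipocytes, against 61.0 and 84.7 CPM in wild-type. Mural cells had 321 CPM against 651 CPM, and endothelial cells 37.2 CPM against 640 CPM. Luminal cells had 4.19 CPM against 40.6 CPM and myoepithelial cells 17.5 CPM against 535 CPM. The libraries shared 35 to 40 cell barcodes per pair. In barcodes of 10 to 100 UMIs, which hold mostly free RNA, members took 2.48% of the wild-type UMIs, 1.99% of the *Mgp*-KO and 0.892% of the *Pd*-KO UMIs.

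Of the 10 types with at least 20 cells in each library, early adipocytes held the most member RNA. Members took 3.73% of all UMIs of early adipocytes in wild-type, 3.62% in *Mgp*-KO and 2.53% in *Pd*-KO. Luminal epithelial cells of the mammary ducts in the pad came next with 3.09%, 2.73% and 2.52%, so that in *Pd*-KO these 2 types were nearly level. Mural cells, the smooth muscle cells and pericytes around vessels, had 2.61%, 2.64% and 2.20%. Cycling progenitors had 2.33%, 1.98% and 1.84%, myoepithelial cells 2.29%, 2.15% and 2.10%, and endothelial cells 2.12%, 1.94% and 1.77%. *Fgf10* and *Col18a1* stromal cells had 2.13%, 1.77% and 1.43%, so they lay near endothelial cells in wild-type and near preadipocytes in *Pd*-KO. Preadipocytes had 2.01%, 1.43% and 1.44%, interstitial progenitors 1.77%, 1.53% and 1.31%, and Aregs, the *F3*-positive adipogenesis regulators, 1.74%, 1.45% and 1.34%.

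**Figure D1:**
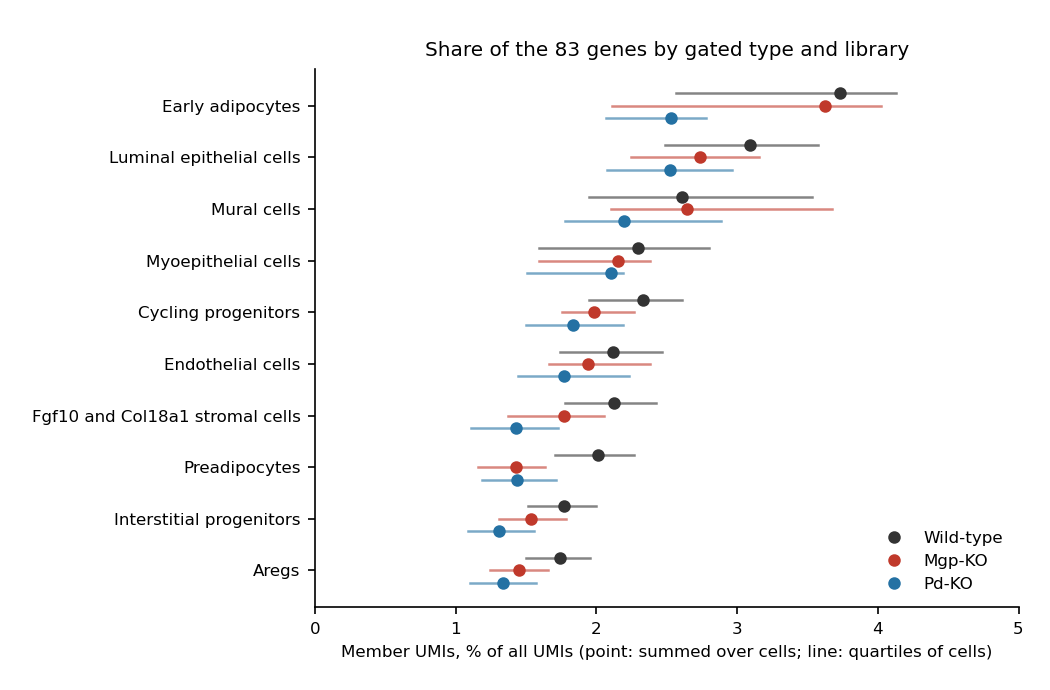
Share of all UMIs that fell on members (percent) in each of 10 gated cell types, with a point for each of the 3 libraries. Early adipocytes lie at 3.73% and 3.62% in the wild-type and *Mgp*-KO libraries, above every other type, and at 2.53% in *Pd*-KO, while interstitial progenitors and Aregs lie between 1.31% and 1.77%.

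In wild-type, the balance among the complexes was similar in early adipocytes and preadipocytes. In wild-type early adipocytes, complex I took 29.0% of the member UMIs, complex II 1.8%, complex III 12.3%, complex IV 26.4% and complex V 30.5%. In wild-type preadipocytes the same parts were 31.6%, 1.6%, 11.0%, 25.5% and 30.4%. Wild-type Aregs lay further from early adipocytes, with 33.8% in complex I and 23.4% in complex IV. Over the 10 types, complex II ran from 1.28% in wild-type luminal cells to 2.35% in *Pd*-KO mural cells. The spread over single cells was wide: the median early adipocyte had 3.30% of its UMIs on members in wild-type (quartiles 2.57% and 4.13%), 2.80% in *Mgp*-KO (2.11% and 4.02%) and 2.31% in *Pd*-KO (2.07% and 2.78%). The quartiles of preadipocytes lay below those of early adipocytes in each library, at 1.71% and 2.27% in wild-type, 1.16% and 1.63% in *Mgp*-KO and 1.19% and 1.71% in *Pd*-KO.

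Within early adipocytes, cells with more adipocyte genes detected had more member RNA. In the wild-type library, cells with 5 or 6 of the 10 adipocyte genes had 2.70% of their UMIs on members, those with 7 or 8 had 3.71%, and those with 9 or 10 had 4.80% (82, 67 and 48 cells). In *Mgp*-KO the shares were 2.44%, 4.28% and 4.71% over 18, 11 and 9 cells. In *Pd*-KO they were 2.14%, 2.78% and 2.62% over 11, 13 and 4 cells, without a further step at the top. The median depth of the wild-type cells moved along with the number of genes detected, from 22511 to 33042 and 39078.5 UMIs, whereas in *Mgp*-KO it was 11919.5, 14825 and 11367 UMIs, and the part of depth was not tested.

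Between early adipocytes and preadipocytes, the UMIs of each type were summed per library and compared with edgeR's quasi-likelihood test over the 3 libraries, with Benjamini-Hochberg adjustment over 14649 genes. All 10 types stood in 1 fit, so the spread behind each p-value was estimated over all of them, not from the 2 types compared alone. The libraries differ in genotype, so this spread includes what genotype does to differences between types. Of the 83 members, 80 passed the filter on low counts. CPM of 1 gene are compared between types and libraries below, not between genes. The fit rescaled the sums by TMM, a trimmed mean of log ratios, whereas CPM are not rescaled, so fitted differences and ratios of CPM can disagree. Among the members tested 74 were higher in early adipocytes and 1 was lower, beside 20.5% of all genes that were higher and 17.8% that were lower. All 74 were higher in each of the 3 libraries, which are also the ones on which they were called. The share of all called genes with such agreement was not counted. The median member difference was 1.13 on the log2 scale, or 2.19-fold, against -0.06 for all genes. Early adipocytes were also deeper, with median UMIs of 28942, 12601.5 and 13138 in wild-type, *Mgp*-KO and *Pd*-KO against 13371, 6980 and 8022 in preadipocytes. The part of depth in the difference was not tested. The summed member share was 1.86-fold that of preadipocytes in wild-type, 2.54-fold in *Mgp*-KO and 1.76-fold in *Pd*-KO.

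Complex I, which takes electrons from NADH, had 34 of 36 members higher, with a median log2 difference of 1.03. *Ndufb6*, an accessory subunit, had 313, 315 and 180 CPM in wild-type, *Mgp*-KO and *Pd*-KO early adipocytes against 123, 88.9 and 74.8 CPM in preadipocytes (log2 difference 1.53, SE 0.14, edgeR adjusted p = 2.09e-09). The 2 that missed the threshold were *Ndufs4* (0.21, edgeR adjusted p = 0.259) and *Ndufa3* (0.18, adjusted p = 0.333), both accessory subunits.

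Complex II, which links the citric acid cycle to the respiratory chain and has no mitochondrially encoded subunit, had all 4 genes higher. The membrane anchor *Sdhd* had 168, 193 and 160 CPM against 61.4, 61.5 and 64.9 CPM (log2 1.53, SE 0.13, edgeR adjusted p = 1.04e-09). The iron-sulfur subunit *Sdhb* followed at 1.36 (SE 0.17), the second anchor *Sdhc* at 1.02 (SE 0.15) and the flavoprotein *Sdha* at 0.89 (SE 0.18). The 3 libraries of early adipocytes did not overlap those of preadipocytes for any of these genes. They were called on the same libraries, and the share of all genes without overlap was not counted.

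Complex III, which passes electrons to cytochrome c, had 8 of 8 members higher and the largest median difference, 1.39. *Uqcr11*, a small subunit, had 847, 793 and 436 CPM against 308, 160 and 187 CPM (log2 1.70, SE 0.16, edgeR adjusted p = 4.54e-09). The Rieske iron-sulfur protein *Uqcrfs1* had 285, 305 and 200 CPM against 95.6, 80.6 and 77.0 CPM (log2 1.68, SE 0.15, edgeR adjusted p = 2.11e-09). For both genes the lowest early adipocyte library, *Pd*-KO, lay above the highest preadipocyte library, and the share of all genes with such a gap was not counted.

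Complex V had 17 of 17 members higher, with a median of 1.07. *Atp5b*, the catalytic beta subunit, had 1126, 957 and 759 CPM against 417, 229 and 300 CPM (log2 1.64, SE 0.12, edgeR adjusted p = 8.46e-11). The 3 genes for subunit c of the proton-driven ring, which encode the same mature protein, differed in size: *Atp5g3* by 1.19 (SE 0.13), *Atp5g1* by 0.94 (SE 0.13) and *Atp5g2* by 0.71 (SE 0.10). *Atp5g2* had 535, 569 and 491 CPM against 361, 325 and 309 CPM.

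Complex IV, which reduces oxygen, was the mixed one, with 11 of 15 tested members higher, 1 lower and 3 past no threshold. *Cox5a*, a structural subunit, had 765, 805 and 464 CPM against 226, 169 and 144 CPM (log2 1.94, SE 0.14, edgeR adjusted p = 7.67e-11). The ubiquitous isoforms rose together: *Cox6b1* by 1.31, *Cox7b* by 1.24, *Cox8a* by 1.19, *Ndufa4* by 1.18, *Cox7a2* by 1.07 and *Cox6a1* by 1.00 on the log2 scale. The members that did not follow were isoforms and relatives of these, and they are described below.

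**Figure D2:**
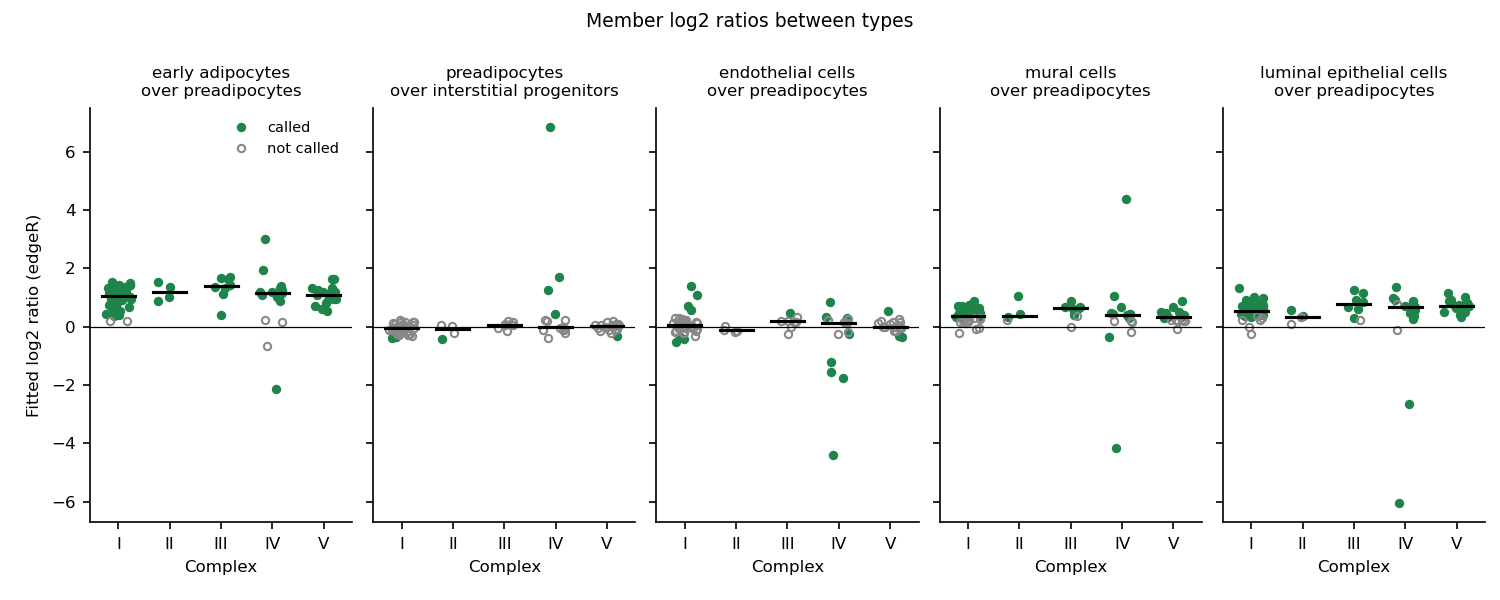
Log2 differences of the tested members in the 5 comparisons between types (axis in log2 units, 1 point per member, set out by complex). Against preadipocytes, early adipocytes have 74 of 80 members higher, luminal epithelial cells 67 and mural cells 53, whereas endothelial cells have 9, and preadipocytes against interstitial progenitors have 4.

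Other RNA moved along with this difference. The 10 genes of the adipocyte list, which set the gate, summed to 12319, 15350 and 10994 CPM in early adipocytes and to 441, 264 and 236 CPM in preadipocytes, and the 5 genes common to all progenitors to 7387, 6523 and 9966 CPM against 20852, 19199 and 24934 CPM. The 6 cell cycle markers, all detected in early adipocytes, summed to 513, 123 and 602 CPM against 13.9, 7.26 and 14.4 CPM in preadipocytes. Cycling progenitors, gated on those markers, had member shares of 1.84% to 2.33%, above preadipocytes and below early adipocytes. The 6 brown adipocyte markers summed to 18.2, 37.1 and 24.7 CPM against 15.5, 28.4 and 17.6 CPM, with 2, 0 and 0 UMIs of *Ucp1* in early adipocytes. The part of these values in the member difference was not tested. Without early adipocytes of at least 2 *Pdgfra* UMIs (89, 11 and 8 cells), an alternative chosen after the data had been seen, 74 members were again higher.

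The isoform genes that differed most among types belonged to complex IV. Promoters of 2 isoform pairs and of the complex III member with the largest difference in early adipocytes are shown, so that the tissue-restricted gene of a pair can be set beside the ubiquitous one and a promoter that holds 2 of the motifs searched. The sequences are from RefSeq on GRCm38.p6, run 5′ to 3′ on the strand of the gene from 250 bases before its start to 50 bases after it, and have motif matches in capitals.
Uqcr11, chr10:80406772-80407071, - strand: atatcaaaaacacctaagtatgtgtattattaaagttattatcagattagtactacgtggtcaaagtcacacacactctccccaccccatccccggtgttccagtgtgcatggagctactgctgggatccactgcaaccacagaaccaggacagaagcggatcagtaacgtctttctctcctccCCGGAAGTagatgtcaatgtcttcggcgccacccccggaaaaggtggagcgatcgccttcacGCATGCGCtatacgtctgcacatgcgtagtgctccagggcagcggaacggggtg
Cox7a2, chr9:79759804-79760103, - strand: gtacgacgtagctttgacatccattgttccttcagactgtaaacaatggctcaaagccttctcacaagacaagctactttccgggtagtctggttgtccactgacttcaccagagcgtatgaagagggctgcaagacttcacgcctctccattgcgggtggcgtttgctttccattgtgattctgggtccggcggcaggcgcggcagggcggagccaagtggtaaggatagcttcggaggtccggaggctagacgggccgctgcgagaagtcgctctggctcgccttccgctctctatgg
Cox7a1, chr7:30183921-30184220, + strand: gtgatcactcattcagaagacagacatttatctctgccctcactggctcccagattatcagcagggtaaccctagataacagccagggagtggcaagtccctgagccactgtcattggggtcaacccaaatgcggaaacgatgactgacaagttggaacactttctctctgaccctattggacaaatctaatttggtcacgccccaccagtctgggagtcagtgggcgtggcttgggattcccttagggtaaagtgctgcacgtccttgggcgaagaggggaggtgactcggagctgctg
Cox8a, chr19:7217567-7217866, - strand: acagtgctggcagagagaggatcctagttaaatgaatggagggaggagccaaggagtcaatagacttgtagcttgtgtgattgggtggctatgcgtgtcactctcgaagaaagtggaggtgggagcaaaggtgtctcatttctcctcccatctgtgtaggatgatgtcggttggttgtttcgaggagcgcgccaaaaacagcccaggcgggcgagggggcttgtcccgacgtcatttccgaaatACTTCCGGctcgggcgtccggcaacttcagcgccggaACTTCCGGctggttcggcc
Cox8b, chr7:140900397-140900696, - strand: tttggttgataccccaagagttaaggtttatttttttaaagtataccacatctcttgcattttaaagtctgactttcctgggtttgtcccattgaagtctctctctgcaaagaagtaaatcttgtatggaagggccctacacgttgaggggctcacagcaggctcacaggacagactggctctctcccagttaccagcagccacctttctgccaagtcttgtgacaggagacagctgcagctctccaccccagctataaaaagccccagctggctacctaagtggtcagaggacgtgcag

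The motifs searched on both strands were GCATGCGC, bound by nuclear respiratory factor 1, TCAAGGTCA, bound by estrogen-related receptors, and CCGGAAGT, bound by GA-binding protein, 3 activators of nuclear genes for mitochondria. *Uqcr11* holds GCATGCGC at bases 247 to 254 and CCGGAAGT at bases 185 to 192. *Cox8a* holds CCGGAAGT on the other strand at bases 245 to 252 and 282 to 289. *Cox7a1*, *Cox7a2* and *Cox8b* hold none of these letters. The ubiquitous genes are richer in CG pairs, with 20 in *Cox7a2* against 7 in *Cox7a1* and 19 in *Cox8a* against 2 in *Cox8b*. Promoters were found for 69 of the 83 members. GCATGCGC was in 10 of them (14.5%, against 3.05% of 27025 promoters of all genes), CCGGAAGT in 5 (7.25% against 4.31%) and TCAAGGTCA in 2 (2.90% against 0.466%). The median member promoter had 19 CG pairs against 7 over all genes. A match describes the letters of the window and is no evidence of binding.

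*Cox7a1*, the heart and muscle isoform of subunit 7a, had the largest difference of all members in early adipocytes (log2 3.01, SE 0.40, edgeR adjusted p = 1.07e-06). It had 45.4 CPM in wild-type and 80.1 CPM in *Mgp*-KO early adipocytes, against 8.50 and 3.63 CPM in preadipocytes. In *Pd*-KO it rested on 2 UMIs and had 4.93 CPM, close to the 4.01 CPM of preadipocytes there. Its rise was thus carried by 2 of the 3 libraries in size. *Cox7a2*, the ubiquitous isoform, had 707, 627 and 429 CPM against 356, 262 and 236 CPM. *Cox7a2l*, a relative that takes part in joining complexes III and IV, had 295, 287 and 247 CPM against 259, 272 and 236 CPM and passed no threshold (log2 0.15, edgeR adjusted p = 0.436).

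*Cox8b*, the heart and muscle isoform of subunit 8, was highest in preadipocytes of the wild-type library. It had 67.3, 25.7 and 25.7 CPM in preadipocytes (965, 170 and 96 UMIs), against 0.708, 0.0692 and 0.193 CPM in interstitial progenitors (17, 2 and 7 UMIs). In early adipocytes it had 26.4, 54.7 and 7.40 CPM (157, 28 and 3 UMIs), so it was lower than in preadipocytes in 2 libraries and higher in *Mgp*-KO (log2 -0.68, SE 0.47, edgeR adjusted p = 0.283). Aregs had 4.35, 0 and 0.740 CPM. Mural cells had 5.89 CPM in wild-type and no UMI in either knockout, where 3 UMIs would be 3.23 and 0.956 CPM. The ubiquitous *Cox8a* had 880, 673 and 475 CPM in preadipocytes against 540, 529 and 328 CPM in interstitial progenitors.

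*Ndufa4l2*, a relative of *Ndufa4* known to be induced by low oxygen, was the 1 member lower in early adipocytes (log2 -2.15, SE 0.55, edgeR adjusted p = 0.00287). It had 6.06 and 1.95 CPM there in wild-type and *Mgp*-KO and no UMI in *Pd*-KO, where 3 UMIs would be 7.40 CPM, against 27.6, 7.41 and 29.7 CPM in preadipocytes. Its highest levels were in mural cells, with 448, 449 and 525 CPM, and among these in smooth muscle cells with 624, 563 and 719 CPM rather than pericytes with 208, 145 and 323 CPM. Aregs had 114, 76.5 and 131 CPM, and interstitial progenitors 8.33, 3.22 and 6.30 CPM. *Ndufa4* had 484, 336 and 348 CPM in preadipocytes and 416, 422 and 260 CPM in mural cells.

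*Cox6b2*, known as the testis isoform of subunit 6b, had 38.7, 38.8 and 42.7 CPM in mural cells, 33.3, 23.3 and 45.4 CPM in cycling progenitors and 28.3, 42.1 and 23.3 CPM in myoepithelial cells. Preadipocytes had 16.8, 15.6 and 16.3 CPM, early adipocytes 19.0, 19.5 and 17.3 CPM, Aregs 20.0, 29.1 and 18.9 CPM, and interstitial progenitors 8.67, 6.54 and 4.09 CPM. The 3 remaining isoforms were too rare to test. *Cox6a2*, the muscle isoform of subunit 6a, had 8, 2 and 0 UMIs in preadipocytes and none in early adipocytes. *Cox7b2* and *Cox8c*, isoforms of testis, had no UMI in either type.

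**Figure D3:**
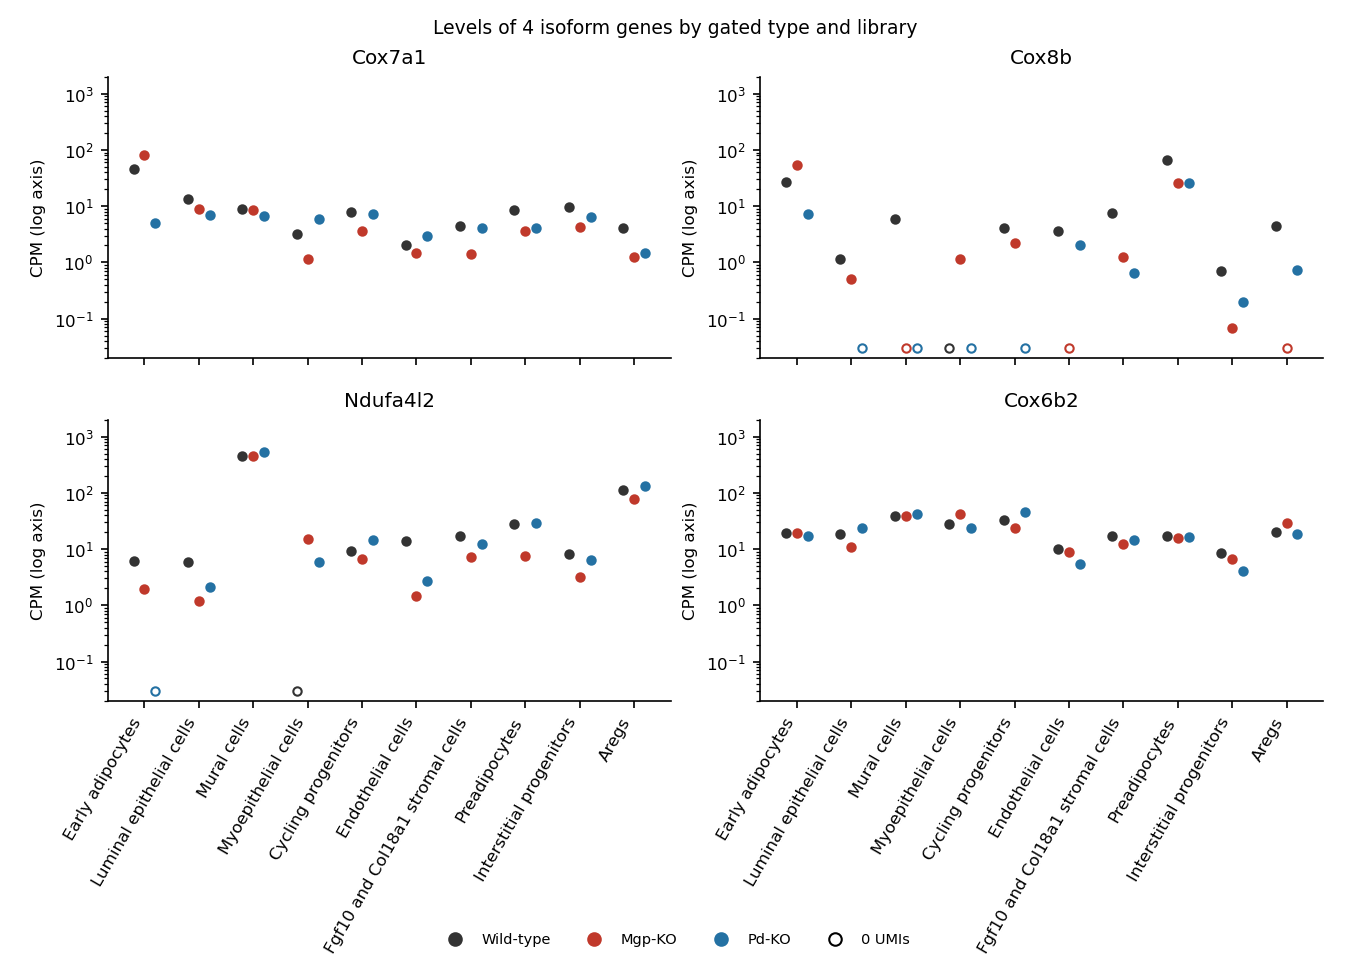
CPM of *Cox7a1*, *Cox8b*, *Ndufa4l2* and *Cox6b2* on a log axis in 10 cell types, 1 point per library, with open circles at the foot for libraries with 0 UMIs. *Cox8b* stands out in preadipocytes and early adipocytes, *Cox7a1* in early adipocytes of the wild-type and *Mgp*-KO libraries, and *Ndufa4l2* in mural cells at 448 to 525 CPM.

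Preadipocytes and interstitial progenitors differed in few members. In preadipocytes 4 of 80 were higher and 4 lower, beside 15.1% and 15.5% of all genes, with a median of -0.03 against -0.01 for all genes. The 4 higher members all belonged to complex IV: *Cox8b* (log2 6.85, SE 0.50, edgeR adjusted p = 3.01e-11), *Ndufa4l2* (1.70, SE 0.34), *Cox6b2* (1.26, SE 0.23) and *Cox8a* (0.44, SE 0.11). The 4 lower ones were small changes: *Sdhd* had 61.4, 61.5 and 64.9 CPM against 69.3, 81.4 and 85.0 CPM (-0.41, SE 0.12, edgeR adjusted p = 0.0083), *Ndufa11* fell by 0.40, *Ndufb11* by 0.35 and the ATP synthase stalk gene *Atp5o* by 0.32 on the log2 scale. Without the *Mgp*-KO library none and without *Pd*-KO 1 member was called lower.

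Endothelial cells had a fitted member median close to that of preadipocytes, with large differences in single members. Their summed member share, which is not TMM-scaled, was higher in each library (2.12%, 1.94% and 1.77% against 2.01%, 1.43% and 1.44%). Against preadipocytes, 9 of 80 members were higher and 10 lower, beside 24.1% and 23.0% of all genes, and the member median was 0.04 against 0.01 for all genes. *Ndufa8*, an accessory subunit of complex I, had 291, 317 and 354 CPM against 124, 101 and 94.6 CPM (log2 1.41, SE 0.13, edgeR adjusted p = 1.46e-09). *Ndufc2*, a membrane arm subunit, had 442, 448 and 305 CPM against 191, 149 and 149 CPM (1.08, SE 0.10). *Cox5a* (0.84), *Ndufs8* (0.70) and *Ndufb7* (0.58) followed. The lower members were led by the restricted isoforms *Cox8b* (-4.41), *Ndufa4l2* (-1.78), *Cox7a1* (-1.57) and *Cox6b2* (-1.22), then *Ndufs4*, with 117, 119 and 129 CPM against 159, 132 and 165 CPM (-0.51, SE 0.13). *Cox7a1* was no longer called without the wild-type library, nor was *Ndufa4l2* without *Pd*-KO. The split depended on scaling, with 15 higher and 9 lower under DESeq2 size factors, and 4 were lower without the wild-type or without the *Pd*-KO library. The endothelial gate also held red blood cell RNA, 776 to 1526 CPM over its 5 markers against 3.18 to 100 CPM in preadipocytes, and cell cycle markers at 22.7 to 195 CPM, and the part of either was not tested. The fraction of free RNA, estimated from markers of other lineages and held at no more than 0.5, was 0.117, 0.290 and, at that limit, 0.5 in endothelial cells of wild-type, *Mgp*-KO and *Pd*-KO, against 0.0757, 0.107 and 0.133 in preadipocytes. With free RNA taken off, 10 members were higher and 10 lower. Without the library as a block 2 were higher and 2 lower.

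Mural cells had 53 of 80 members higher than preadipocytes and 2 lower, beside 18.8% and 17.8% of all genes, with a median of 0.38 against 0.02. *Ndufa4l2* led (log2 4.38, SE 0.35, edgeR adjusted p = 1.13e-10), followed by *Cox6b2* (1.05, SE 0.24). *Sdhc* had 135, 151 and 148 CPM against 64.4, 49.0 and 63.3 CPM (1.04, SE 0.14). *Ndufb7* rose by 0.88 and *Atp5b* by 0.87 on the log2 scale. In complex II, *Sdhb* (0.42) and *Sdhd* (0.32) were also called, and *Sdha* (0.24) was not. *Cox8b* (-4.16) and *Ndufa4* (-0.35, SE 0.12, edgeR adjusted p = 0.0267) were lower, the latter in 2 of 3 libraries and no longer called without the wild-type or the *Pd*-KO library. The count of higher members depended on several choices. It was 17 without the *Mgp*-KO library, whose group held 195 cells, 31 without *Pd*-KO, 25 with only the 2 types in the fit, 20 with cells of at least 5000 UMIs and 5 without the library as a block. Other RNA was also higher in mural cells. Cell cycle markers summed to 122 to 158 CPM, the 7 endothelial markers to 183, 258 and 291 CPM against 28.9, 23.7 and 20.0 CPM in preadipocytes, and the 6 skeletal muscle markers to 98.4, 113 and 81.9 CPM against 26.6, 21.0 and 29.1 CPM. Of the muscle markers, the myosin light chain *Myl1* made up 89.3, 106 and 78.1 CPM in mural cells, *Myh4* had no UMI in any library, and *Ckm* had 4, 0 and 0 UMIs. The part of these values in the member difference was not tested.

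Luminal epithelial cells had 67 of 80 members higher than preadipocytes and 2 lower, beside 31.9% and 29.7% of all genes, with a median of 0.63 against 0.03. *Cox5a* had 528, 503 and 471 CPM against 226, 169 and 144 CPM (log2 1.36, SE 0.14, edgeR adjusted p = 2.23e-09). *Ndufa7*, a complex I subunit, had 704, 649 and 584 CPM against 299, 213 and 203 CPM (1.31, SE 0.12). The subunit c gene *Atp5g2* had 832, 871 and 752 CPM, more than in early adipocytes in each library (log2 1.17 over preadipocytes, SE 0.10). *Uqcrfs1* (1.27) and *Uqcr11* (1.16) stood next to these, all 17 members of complex V were higher, and *Cox8b* (-6.05) and *Ndufa4l2* (-2.65) were lower. In complex II, *Sdhd* (0.56) and *Sdhb* (0.38) were called, while *Sdhc* (0.31) and *Sdha* (0.09) were not. Without the library as a block 25 members were higher. Cell cycle markers summed to 368 to 707 CPM in these cells, and their part was not tested.

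The rest of the pathway was followed in early adipocytes against preadipocytes with the same fit. Of the list of genes outside the name pattern, 5 of 6 were higher and none lower. Among them were the electron carrier cytochrome c, *Cycs* (log2 2.45), and the subunits *Cyc1* (2.13) and *Cox4i1* (0.87), while the isoform *Cox4i2* was at -0.70 without being called. Of the 13 subunits encoded in mitochondrial DNA, 9 were higher and none lower, with a median of 0.55 on the log2 scale, smaller than that of the nuclear members. Assembly factors had 36 of 47 higher and none lower (median 0.77), and mitochondrial ribosomal proteins 75 of 78 and none (1.09). All 17 genes of the citric acid cycle were higher (1.45), led by *Idh3a* (2.90) of isocitrate dehydrogenase, with citrate synthase, *Cs*, at 1.85. Fatty acid oxidation had 13 of 16 higher and 1 lower, *Cpt1a* (-0.88), which brings fatty acids into mitochondria, and glycolysis 11 of 15 higher and 1 lower, hexokinase *Hk1* (-1.07). Carriers and uncoupling proteins had 5 of 6 higher and none lower, with the ADP/ATP carrier *Slc25a5* at 1.99. Of 15 regulators of mitochondrial biogenesis, 6 were higher and 1 lower. *Esrrg* (3.13), *Ppargc1b* (2.80), *Esrra* (0.88) and *Tfam* (0.65) were among the former, *Epas1* (-1.98) was the latter, and *Ppargc1a* was at -0.38 (edgeR adjusted p = 0.643). Cytosolic ribosomal proteins had 79 of 91 higher and none lower (median 0.50), and 5 of 6 transcripts that stay in the nucleus were lower and none higher (-1.23).

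The genotypes were compared within a type as the ratio of CPM of knockout over wild-type. Both ratios share the wild-type library, so they are not independent and are given side by side. A member was counted as changed past 1.5-fold, among genes with at least 100 UMIs over both libraries. In early adipocytes, wild-type held 5941180 UMIs against 511845 in *Mgp*-KO and 405593 in *Pd*-KO. Genes there passed mainly through wild-type, and ratios near the minimum carry much counting error. The shares of all genes past 1.5-fold in early adipocytes include that error. Against all such genes, which had median log2 ratios between 0.03 and 0.29, the member median was lower in each of the 3 types and both knockouts. In *Mgp*-KO early adipocytes the gap was smallest and did not hold throughout: the member median lay above that of all genes with a stricter gate (0.074 against 0.022) and with a minimum of 500 UMIs (-0.039 against -0.10). Counts that moved with median-ratio or TMM scaling are given under these too. These scalings took 0.03 to 0.44 off the log2 ratio of every gene. The shares of all genes beside the counts are unscaled and over all cells of the type. Shares under other settings move too and are not given here, so counts under those settings cannot be set against the printed shares. A median relative to all genes, as given below, has theirs taken off. Neither it nor the shares of all genes are matched for genomic span, with which the ratios rose. In *Pd*-KO interstitial progenitors, all genes had a median of 0.20 and members -0.43. At spans up to 5 kb these were -0.28 and -0.54, so the gap was smaller there. Values by span are given further below. Free RNA was not taken off in these ratios, and its estimated fractions are given with the other types.

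In interstitial progenitors, summed member CPM changed by -0.20 on the log2 scale in *Mgp*-KO (interval -0.21 to -0.20) and by -0.43 in *Pd*-KO (-0.44 to -0.43). In *Mgp*-KO, 0 of 79 members were higher past 1.5-fold and 4 lower, beside 26.0% and 3.32% of all genes. Its member median was -0.19, which is -0.34 relative to all genes, and 10 and 11 were lower under median-ratio and TMM scaling. In *Pd*-KO, 0 of 79 were higher and 20 lower, beside 31.6% and 6.3% of all genes, with a median of -0.43, or -0.63 relative to all genes. That count of 20 was 47 and 46 under the same 2 scalings, 8 in female and 31 in male cells, and 4 in cells of 5000 to 10000 UMIs, a band chosen after the data had been seen. The 4 in *Mgp*-KO were *Cox6a1*, *Atp5k*, *Ndufa4l2* (8.33 CPM in wild-type against 3.22 CPM, log2 -1.37) and *Cox7a1* (9.54 against 4.33 CPM, log2 -1.14). *Cox6a1*, the ubiquitous isoform of subunit 6a, was lowest among members of at least 50 CPM, with 290 CPM in wild-type, 172 CPM in *Mgp*-KO (log2 -0.76, interval -0.81 to -0.70) and 150 CPM in *Pd*-KO (-0.95, interval -1.0015 to -0.90). *Atp5k*, a small membrane subunit of complex V, had 180, 115 and 98.8 CPM, and the rarer *Cox6b2* was at -0.41 and -1.08 on the log2 scale. The next lowest were *Ndufs6* (-0.52), *Atp5b* (-0.51) and *Uqcr11* (-0.51) in *Mgp*-KO and *Uqcrq* (-0.82), *Ndufa11* (-0.81) and *Ndufa12* (-0.74) in *Pd*-KO.

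A few members of interstitial progenitors ran against this. *Sdhd* had 69.3 CPM in wild-type, 81.4 CPM in *Mgp*-KO (log2 0.23, interval 0.14 to 0.32) and 85.0 CPM in *Pd*-KO (0.29, interval 0.21 to 0.38). In *Mgp*-KO, *Atp5g2* (0.12), *Uqcrfs1* (0.10) and *Ndufs4* (0.07) were among the next highest, and in *Pd*-KO *Sdha* (0.14), *Ndufs4* (0.12) and *Cox7a2l* (-0.04). The gene of *Ndufs4* spans 100 kb. All genes over 50 kb had medians of 0.78 in *Mgp*-KO and 1.02 in *Pd*-KO, so *Ndufs4* lay below genes of its length. Under median-ratio and TMM scaling *Sdhd* kept its direction (0.08 and 0.06 in *Mgp*-KO, 0.10 and 0.11 in *Pd*-KO), whereas *Atp5g2* and *Uqcrfs1* in *Mgp*-KO, *Sdha* in *Pd*-KO and *Ndufs4* in both turned negative. Complex II as a whole had a median of -0.14 in *Mgp*-KO and 0.04 in *Pd*-KO, where complex IV had -0.54.

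Preadipocytes had more members past 1.5-fold in *Mgp*-KO than either other type. Summed member CPM changed by -0.50 on the log2 scale in *Mgp*-KO (interval -0.51 to -0.49) and by -0.48 in *Pd*-KO (-0.50 to -0.47). In *Mgp*-KO, 0 of 80 members were higher and 32 lower, beside 29.9% and 7.82% of all genes, with a median of -0.66 relative to all genes. Median-ratio and TMM scaling gave 49 and 66 lower. In *Pd*-KO, 0 of 80 were higher and 23 lower, beside 34.4% and 5.94%, with a median of -0.75 relative to all genes. There these scalings gave 59 and 71 lower, so that *Pd*-KO had the more, while female cells gave 13 and cells of 5000 to 10000 UMIs 8. The genes that mark the gate were lower too: the 8 preadipocyte markers summed to 22097, 12244 and 8361 CPM in wild-type, *Mgp*-KO and *Pd*-KO preadipocytes and the 10 adipocyte markers to 441, 264 and 236 CPM. The part of which cells passed the gate was not tested. With a stricter gate 33 members were lower in *Mgp*-KO and 27 in *Pd*-KO. Lower members were spread differently over the complexes: in *Mgp*-KO 15 of 36 in complex I, 1 of 4 in II, 4 of 8 in III, 5 of 15 in IV and 7 of 17 in V, and in *Pd*-KO 5, 0, 4, 11 and 3 of the same numbers. These distributions were not tested against each other.

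*Cox8b* was the lowest member in preadipocytes of both knockouts among those of at least 50 CPM in either library. It had 67.3 CPM in wild-type and 25.7 CPM in each knockout (log2 -1.39, interval -1.63 to -1.15 in *Mgp*-KO and -1.71 to -1.09 in *Pd*-KO). It reached 50 CPM in wild-type alone, a choice of genes that favours a low ratio. *Cox6a1* had 319, 158 and 157 CPM, and *Ndufa12*, an accessory subunit of complex I, 158, 82 and 88.7 CPM. The rarer *Ndufa4l2* had 27.6 CPM in wild-type against 7.41 CPM in *Mgp*-KO (log2 -1.90, interval -2.36 to -1.47) and 29.7 CPM in *Pd*-KO (0.10, interval -0.21 to 0.41), and *Cox7a1* was at -1.23 and -1.09. In *Mgp*-KO the other lowest members were *Atp5k* (-1.04) and *Uqcr11* (-0.94). In *Pd*-KO they were *Cox8a* (-0.89) and *Cox7b* (-0.86), both of complex IV. The highest were *Cox7a2l* (0.07, interval -0.01 to 0.15), *Sdhd* (0.00), *Uqcrh* (-0.02), *Sdha* (-0.11) and *Atp5g2* (-0.15) in *Mgp*-KO and *Sdha* (0.42, interval 0.23 to 0.60), *Sdhd* (0.08), *Ndufs4* (0.06), *Atp5a1* (0.01) and *Sdhc* (-0.02) in *Pd*-KO. *Sdha* in *Pd*-KO came to 0 under TMM scaling. *Sdhb* was lower in both, at -0.66 and -0.50.

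In early adipocytes the values of the knockouts lay furthest apart, a difference that was not tested. Summed member CPM changed by -0.04 on the log2 scale in *Mgp*-KO (interval -0.06 to -0.02) and by -0.56 in *Pd*-KO (-0.59 to -0.53). The first of these turned to 0.060 with a stricter gate and was -0.30 under TMM scaling, and the second was -0.999 under TMM. In *Mgp*-KO, 2 of 79 members were higher and 0 lower, beside 20.6% and 12.3% of all genes, and the median was -0.06 relative to all genes. TMM scaling gave 1 higher and 7 lower there, and with each cell weighted equally 0 were higher and 2 lower. In *Pd*-KO, 0 of 79 were higher and 31 lower, beside 26.6% and 13.6%, with a median of -0.65 relative to all genes. Median-ratio and TMM scaling gave 49 and 74 lower in *Pd*-KO. Of the 31, 6 of 8 counted members were in complex III (median -0.75), 8 of 14 in complex IV (-0.72), 12 of 36 in complex I, 1 of 4 in complex II and 4 of 17 in complex V. The *Mgp*-KO and *Pd*-KO values come from 38 and 28 cells.

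*Cox8b* and *Cox7a1* were the 2 members past 1.5-fold in *Mgp*-KO early adipocytes. *Cox8b* had 26.4 CPM in wild-type, 54.7 CPM in *Mgp*-KO (log2 1.05, interval 0.41 to 1.64) and 7.40 CPM in *Pd*-KO (-1.84, interval -4.13 to -0.26). With each cell weighted equally the *Mgp*-KO ratio turned to -0.21. *Cox7a1* had 45.4, 80.1 and 4.93 CPM, for log2 ratios of 0.82 (interval 0.31 to 1.30) and -3.20 (-6.26 to -1.34). In *Mgp*-KO, *Sdha* (0.31), *Ndufb3* (0.29) and *Ndufb8* (0.29) were next, and the lowest were *Atp5g1* (-0.48), *Ndufs6* (-0.41), *Ndufb4* (-0.40), *Ndufa12* (-0.40) and *Ndufc1* (-0.39). In *Pd*-KO the next lowest included *Atp5k*, with 480 CPM in wild-type against 197 CPM (-1.28, interval -1.62 to -0.96), and *Ndufa12* (-1.02). The highest there were *Ndufa1* (0.13), *Ndufv1* (-0.01), *Sdhd* (-0.07), *Atp5g2* (-0.12) and *Cox6b2* (-0.14), whose intervals all included 0. *Sdhb* was at 0.19 in *Mgp*-KO (interval -0.05 to 0.43) and at -0.82 in *Pd*-KO (-1.22 to -0.45).

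**Figure D4:**
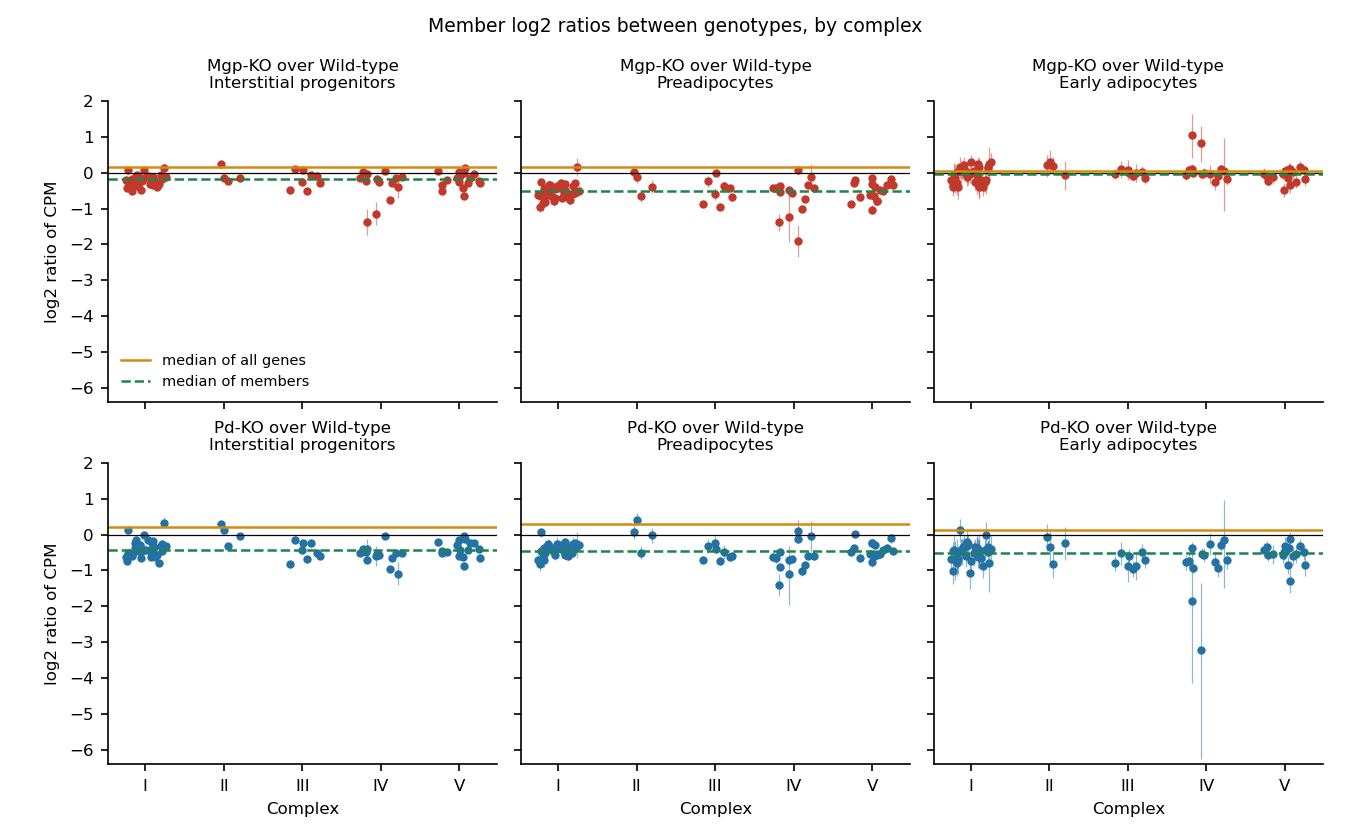
Log2 ratios of member CPM, knockout over wild-type, by complex, in 6 panels for 2 knockouts and 3 cell types, with 95% counting intervals as lines, the median of all genes as a solid line and that of the members as a dashed line. Members lie mostly below the median of all genes. The member median relative to all genes is -0.06 in *Mgp*-KO early adipocytes and between -0.34 and -0.75 in the other 5 panels. It is not matched for genomic span.

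In the other types the summed member ratios were -0.26 and -0.38 in Aregs for *Mgp*-KO and *Pd*-KO, -0.27 and -0.58 in *Fgf10* and *Col18a1* stromal cells, -0.23 and -0.34 in cycling progenitors, -0.18 and -0.29 in luminal, -0.13 and -0.26 in endothelial and -0.09 and -0.13 in myoepithelial cells. Mural cells had 0.02 in *Mgp*-KO (interval -0.00 to 0.04) and -0.25 in *Pd*-KO. All values except that of *Mgp*-KO mural cells were below 0. Free RNA was not taken off in any ratio between genotypes, and its part was not tested. Its estimated fraction was higher in *Pd*-KO than in wild-type in each of these types. It was 0.5, the limit, against 0.117 in endothelial cells and 0.230 against 0.0645 in cycling progenitors. Interstitial progenitors had 0.144 against 0.0648. In barcodes of mostly free RNA, members took 0.892% of UMIs in *Pd*-KO and 2.48% in wild-type.

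Subunits encoded in mitochondrial DNA were set beside the nuclear ones, without a test between the lists. In *Mgp*-KO, 8 of 13 were lower past 1.5-fold in interstitial progenitors (median log2 -0.67) and 9 of 13 in preadipocytes (-0.70), with 0 of 13 in early adipocytes (-0.10). In *Pd*-KO, 4 of 13 were lower in interstitial progenitors (-0.24), 1 in preadipocytes (0.03) and 1 in early adipocytes (0.06), and none was higher in either knockout. Of all genes, 3.32%, 7.82% and 12.3% were lower in *Mgp*-KO and 6.3%, 5.94% and 13.6% in *Pd*-KO, in this order of types, and 20.6% to 34.4% were higher. The median of all genes was 0.29 in *Pd*-KO preadipocytes and 0.13 in *Pd*-KO early adipocytes, above that of the mitochondrial list in both. The nuclear members had medians of -0.19, -0.50 and -0.03 in *Mgp*-KO in the same order of types, so both lists were lower in each, while in *Pd*-KO preadipocytes and early adipocytes the nuclear median was below 0 and the mitochondrial one above it. Mitochondrial ribosomal proteins had medians of -0.09 and -0.30 in interstitial progenitors, -0.42 and -0.29 in preadipocytes and -0.09 and -0.30 in early adipocytes for *Mgp*-KO and *Pd*-KO. The citric acid cycle had medians of 0.06 and -0.00, -0.17 and 0.04, and 0.17 and -0.38 in the same order. Cytosolic ribosomal proteins, which are no part of the pathway, were at -0.01 and -0.32, -0.29 and -0.50, and -0.22 and -0.37.

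The ratios moved with the length of the gene. The genomic span from the first to the last base of a gene was taken from GENCODE M21 on GRCm38 for all 83 members. Their median span was 7.21 kb, against 12.3 kb over 32235 genes of the series, whether counted in the ratios or not. The counted genes were longer. In *Pd*-KO interstitial progenitors, 1311 of them spanned up to 5 kb, 3213 spanned 20 to 50 kb and 3439 more than 50 kb, against 26, 9 and 1 members. In *Pd*-KO interstitial progenitors, the median log2 ratio of all genes went from -0.28 at spans up to 5 kb through -0.16, -0.02 and 0.24 to 1.02 above 50 kb. Members in the same bands had -0.54, -0.43, -0.35, -0.21 and 0.12, the last from 1 gene, *Ndufs4*. In *Mgp*-KO preadipocytes all genes went from -0.33 to 0.95, and members in the first 4 bands had -0.60, -0.52, -0.43 and -0.37. In early adipocytes, members of those bands had -0.06, -0.01, 0.02 and -0.04 in *Mgp*-KO, where all genes had -0.19, -0.14, -0.10 and 0.02, and -0.58, -0.49, -0.52 and -0.46 in *Pd*-KO. Bands above 10 kb held fewer than 20 members each. By their headers, the wild-type counts come from Cell Ranger 4 and those of both knockouts from 7.1.0, with no word on the counting of intron reads, so genotype and software version cannot be told apart. Among cells of 5000 to 10000 UMIs, chosen after the data had been seen, the summed ratios were -0.08 and -0.22 in interstitial progenitors and -0.45 and -0.38 in preadipocytes for *Mgp*-KO and *Pd*-KO.

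**Figure D5:**
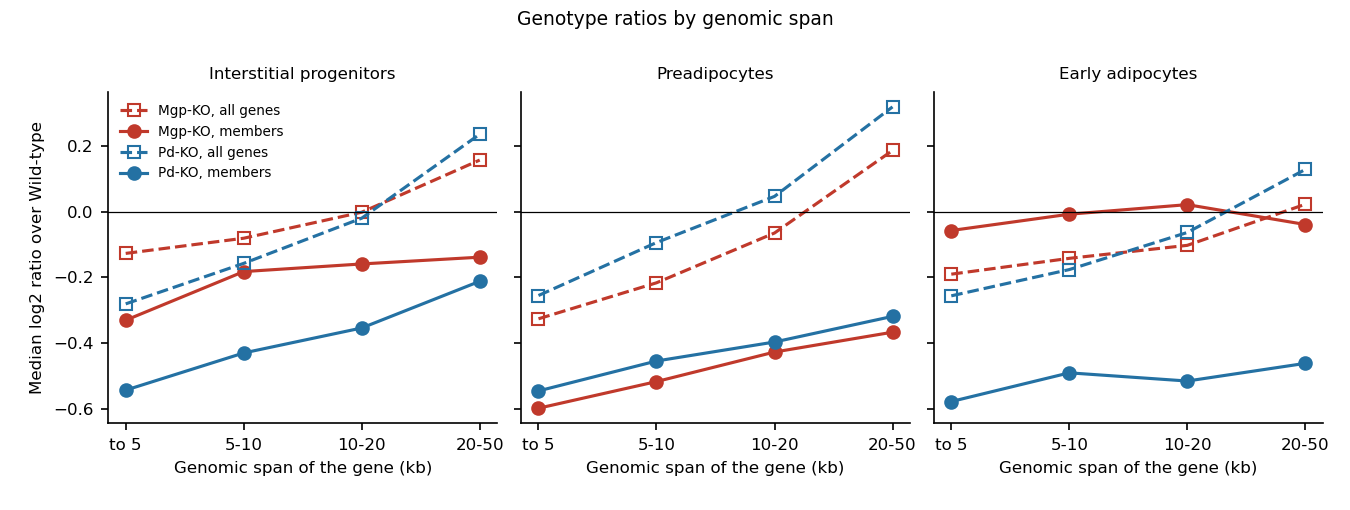
Median log2 ratio, knockout over wild-type, against genomic span of the gene in bands up to 50 kb, for all genes and for members, in interstitial progenitors, preadipocytes and early adipocytes. The band above 50 kb is not drawn. All genes climb with span in every panel, to 0.24 at 20 to 50 kb in *Pd*-KO interstitial progenitors. Members lie below all genes of the same band except in *Mgp*-KO early adipocytes below 20 kb.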

How the data were processed

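The authors deposited whole UMI counts of 32285 genes for every barcode, neither filtered nor normalized. By the headers, Cell Ranger 4 made the wild-type counts and 7.1.0 those of both knockouts, the submitters' processing notes name 6.1.1 and GRCm39, and the study's methods name mm10. The steps from the counts were written here in Python 3.11.15 with SciPy 1.17.1 and R 4.3.3. Members and gene lists were chosen with earlier results of these data known, and gate thresholds were set after marker distributions had been seen, without member genes.

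The files held 184102026, 93212243 and 83942865 UMIs for wild-type, *Mgp*-KO and *Pd*-KO. Barcodes of at least 2000 UMIs were kept, and 426, 4 and 187 with over 10% mitochondrial UMIs were removed. No doublet caller was run. Cells in more than 1 lineage gate were left out. Preadipocytes needed 6 of 8 markers, interstitial progenitors 5 of 7, and endothelial, mural and luminal cells at least 4 of theirs.

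UMIs were summed per type and library for 10 types with at least 20 cells in each library. edgeR 4.0.16 (limma 3.58.1, TMM scaling, quasi-likelihood test, library as block, Benjamini-Hochberg adjustment, called at an adjusted p of 0.05) compared types. All 10 types stood in 1 fit, so the spread behind a p-value was estimated over all of them. It covers only these 3 libraries, and nothing says that they vary like independent replicates. DESeq2 1.42.0 was an alternative. Between genotypes, CPM were UMIs scaled to the same total in each type and library, ratios have exact conditional binomial intervals, and a share has an exact Poisson one. The edgeR step and the ratio intervals were tested on simulated data. For edgeR, every type and library had the same gene means, apart from a set of genes changed in early adipocytes. Without effects of library or genotype, that simulation cannot speak for the p-values of these data. Named are the isoform and *Sdh* genes, the 5 called members highest and the 5 lowest in a comparison of types, and the 5 highest and 5 lowest between genotypes with at least 50 CPM in a library, or 100 UMIs over both in early adipocytes; *Ndufb6* was added after its values were seen, and 1 member that the rule names is not reported here. Reads that fit several near-identical copies of a gene are not counted by such pipelines, so levels of members with processed copies are uncertain. No sequence of a protein was used here.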

Additional observations from a re-analysis of the deposited data

Results flagged for a closer look

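Some members had ratios of knockout over wild-type on opposite sides of 0 in different cell types, with counting intervals that leave out 0 on both sides. Each value comes from 1 library per genotype, and the differences between types were not tested. *Cox8b* in *Mgp*-KO was at 1.05 on the log2 scale in early adipocytes and at -1.39 in preadipocytes. In the same knockout *Ndufb3* was at 0.29 in early adipocytes, -0.12 in interstitial progenitors and -0.51 in preadipocytes, and *Ndufb8* was at 0.29, -0.13 and -0.43 in that order. *Atp5g2* was at 0.12 in *Mgp*-KO interstitial progenitors and -0.15 in preadipocytes, *Uqcrfs1* at 0.10 and -0.25, and *Ndufs4* at 0.072 and -0.26. In *Pd*-KO, *Ndufs4* was at -0.43 in early adipocytes and 0.12 in interstitial progenitors. Each of these *Ndufs4* values lay below the median of all genes over 50 kb. That median was 0.78 and 0.95 for the *Mgp*-KO values and 0.82 and 1.02 for the *Pd*-KO values. Several of these pairs lost their opposite signs under another setting. With median-ratio and TMM scaling the interstitial progenitor values of *Atp5g2* (-0.031 and -0.050), *Uqcrfs1* (-0.051 and -0.069) and *Ndufs4* (-0.076 and -0.095) in *Mgp*-KO and of *Ndufs4* (-0.075 and -0.063) in *Pd*-KO were below 0, and *Cox8b* in *Mgp*-KO early adipocytes was at -0.21 with cells weighted equally.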

How the results depend on the processing

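No paired analysis was possible because each group has 1 library. For the comparisons between types, DESeq2 size factors gave 15 endothelial members higher in place of 9, and the DESeq2 test gave 19, with 7 in place of 4 higher in preadipocytes over interstitial progenitors. With only the 2 types in the fit, 25 in place of 53 mural members were higher and 1 in place of 2 lower, 5 in place of 10 endothelial ones were lower, and 2 in place of 4 were lower in preadipocytes over interstitial progenitors. No filter on low counts gave 6 endothelial and 1 mural members lower. No library block gave 0 lower in early adipocytes, 2 higher and 0 lower in preadipocytes over interstitial progenitors, 2 higher and 2 lower in endothelial, 5 higher and 1 lower in mural and 25 in place of 67 higher in luminal cells, and 52 in place of 74 higher in early adipocytes. Leaving out 1 library gave 1 to 2 lower and 66 to 68 higher in early adipocytes, 0 to 4 lower in preadipocytes over interstitial progenitors, 6 to 8 higher and 4 to 13 lower in endothelial, 17 to 46 higher and 1 to 2 lower in mural and 47 to 66 higher in luminal cells. Cells of at least 5000 UMIs gave 7 lower in preadipocytes over interstitial progenitors, 5 higher in endothelial and 20 higher in mural cells, and at most 5% mitochondrial UMIs gave 8 lower in the first of these. Free RNA taken off left 1 mural member lower. Without non-progenitor cells of 2 or more *Pdgfra* UMIs, chosen after seeing the data, 2 early adipocyte members were lower and 14 endothelial ones higher.

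Scaling moved the ratios between genotypes most. It moves the ratios of all genes too, and the shares of all genes under each setting are not given here. With median-ratio scaling 10 and with TMM 11 in place of 4 members were lower in *Mgp*-KO interstitial progenitors, 47 and 46 in place of 20 in *Pd*-KO, 49 and 66 in place of 32 in *Mgp*-KO preadipocytes, 59 and 71 in place of 23 in *Pd*-KO, and 49 and 74 in place of 31 in *Pd*-KO early adipocytes; in *Mgp*-KO early adipocytes TMM gave 1 higher and 7 lower. The summed log2 ratios under these 2 scalings were -0.35 and -0.37, -0.63 and -0.62, -0.65 and -0.77, -0.77 and -0.90, -0.69 and -0.999, and for *Mgp*-KO early adipocytes -0.077 and -0.30. With each cell weighted equally they were -0.15, -0.39, -0.48, -0.45, -0.52 and -0.13 in the same order, with 0 higher and 2 lower in *Mgp*-KO early adipocytes, and with a total free of mitochondrial and ribosomal genes -0.22, -0.51, -0.58, -0.59, -0.67 and -0.12. A stricter gate gave -0.52 in *Pd*-KO preadipocytes, -0.64 in *Pd*-KO early adipocytes and, reversed, 0.060 in *Mgp*-KO early adipocytes, where the median became 0.074. In interstitial progenitors, cells of at least 5000 UMIs gave -0.22 and -0.44, cells of at most 5% mitochondrial UMIs -0.22 and -0.44, female cells -0.27 and -0.37, male cells -0.17 and -0.52, and cells of 5000 to 10000 UMIs, chosen after seeing the data, -0.083 and -0.22, for *Mgp*-KO and *Pd*-KO. In preadipocytes female cells gave -0.54 and -0.45, male cells -0.46 and -0.56, and cells of 5000 to 10000 UMIs -0.45 and -0.38. Counts of lower members in *Pd*-KO were 8 in female cells, 31 in male cells and 4 in the depth band for interstitial progenitors, with 1 higher in that band, and 13 in female cells and 8 in the band for preadipocytes, with 1 higher in female cells. A minimum of 500 UMIs left 2 lower in *Mgp*-KO interstitial progenitors and 0 higher in *Mgp*-KO early adipocytes, and a minimum of 20 UMIs gave 1 lower in the latter. Early adipocytes were too few for the depth band, which was not run there.

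The summed share of early adipocytes over preadipocytes, at 0.89, 1.35 and 0.81 on the log2 scale in wild-type, *Mgp*-KO and *Pd*-KO, was 1.02, 1.48 and 0.94 without mitochondrial and ribosomal genes and 0.83, 1.18 and 0.76 with cells weighted equally. It was 0.95 and 1.505 in wild-type and *Mgp*-KO with the stricter gate and 0.87 in wild-type with at most 5% mitochondrial UMIs. Single members reversed under median-ratio and TMM scaling: in *Mgp*-KO interstitial progenitors *Atp5g2* (-0.031 and -0.050), *Ndufs4* (-0.076 and -0.10) and *Uqcrfs1* (-0.051 and -0.069, and -0.00161 in female cells), in *Pd*-KO *Ndufs4* (-0.075 and -0.063) and *Sdha* (-0.055 and -0.042), and *Sdha* in *Pd*-KO preadipocytes (-0.0015, TMM alone). *Cox8b* in *Mgp*-KO early adipocytes was -0.21 with cells weighted equally. The causes of these changes were not tested. Of the values of main results under other settings, 108 moved past counting error or the limits set, 1 reversed and 222 stayed within them. Among single values, 221 moved, 14 reversed and 1838 kept their call or stayed within such limits. Another 112 were no longer and 23 newly past the threshold.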

Other observations

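Neurons passed their gate in the wild-type library only, with 90 cells of a median of 3155 UMIs. Members took 4.79% of their UMIs (exact Poisson interval 4.72% to 4.86%), more than in any of the 10 types described, and *Cox7a1* was at 38.4 CPM. Smooth muscle cells had member shares of 2.92%, 2.78% and 2.26% in wild-type, *Mgp*-KO and *Pd*-KO mice (962, 136 and 279 cells), and pericytes 2.11%, 2.40% and 2.11% (119, 35 and 207 cells).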
